A study of Mus musculus with 12 samples.

Results

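In the animals labelled DN, RNA bound to tagged ribosomes (output) was compared with RNA of the dissected tissue (input). These are 6 of the 12 libraries of the series, 3 inputs and 3 outputs, chosen by their DN label and paired by pool number, since the input and the output of a number come from 1 pool of 6 mice. All 12 libraries come from the ventromedial nucleus of the hypothalamus (VMN) of mice kept on regular chow and fasted overnight. Both groups received an adeno-associated virus (AAV) that codes for ribosomal protein L10 fused to green fluorescent protein. DN mice also received an AAV for a dominant-negative form of the kinase AMPK, and CTRL mice (6 libraries, 3 pools) are labelled as lacking it, although their treatment text names that virus too. The labels used here give no strain, age or sex, and no promoter or Cre driver for either virus, so the cells that carried the dominant-negative protein are not defined by them. RNA counts do not measure AMPK activity.

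In translating ribosome affinity purification (TRAP), tagged ribosomes are pulled out of a tissue lysate with the RNA they hold, so that an output is enriched for transcripts of the cells that make the tag. The tagged cells here are labelled SF1 cells. SF1, encoded by Nr5a1, is a nuclear receptor that marks neurons of the VMN, a mainly glutamatergic nucleus known for its part in glucose control, energy expenditure and social behaviour. AMPK is a trimeric kinase that becomes active when cellular energy runs low, and a dominant-negative form is a defective version that interferes with the enzyme of the cell.

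The 6 DN libraries held between 40578926 and 55464854 counts in genes. Of these, 78.6% ± 1.03 (SD, n = 3) fell in mitochondrially encoded genes in the inputs, against 24.9% ± 1.01 in the outputs. Nuclear genes therefore held from 9847741 to 11262160 counts in inputs and from 30598431 to 32138839 in outputs, so low levels are measured less precisely in inputs. Levels below are in normalized CPM, counts scaled to a common library size with TMM, listed for pools 1, 2 and 3 in that order. Their scale is set so that most genes match between libraries, and because of the mitochondrial share the scaled inputs sum to more than the outputs. Fold changes are log2 values of output against input with their standard error (SE). A gene passed when its adjusted p in edgeR's quasi-likelihood test, with the pool as a block, was below 0.05 over the 13041 genes tested. The p-values of this comparison rest on the spread between these 3 pools, with edgeR drawing each gene's spread toward that of other genes. Those of the difference between DN and CTRL rest on 6 pools.

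In the outputs 213 genes were higher (1.63% of those tested) and 183 were lower (1.4%), 396 in all (3.04%). The log2 fold change had the same sign in all 3 pools for each of the 396 genes. In 389 of them the groups did not overlap, against 22.3% of all tested genes. The call was made on these same pools and favours both patterns, so neither adds support to it. The genes that rose had a median log2 fold change of 1.10 and went from a median level of 105 to 231 CPM, with 20 genes changed at least 4-fold. The genes that fell had a median of -2.52 and went from 61.8 to 17.8 CPM, with 115 changed at least 4-fold and 40 at least 16-fold. Of the 213 genes that rose 208 are protein-coding, and of the 183 that fell 171 are, while 10 lie on the mitochondrial chromosome. The median over all tested genes was 0.00138 (6535 of 13041 were positive). Of the 396 calls 53.8% were rises, against 40.5% of the 1529 calls of DESeq2. The number of calls depended on pool 3: without it 45 genes were higher and 62 lower, and without pool 2 the numbers were 124 and 117.

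**Figure D1:**
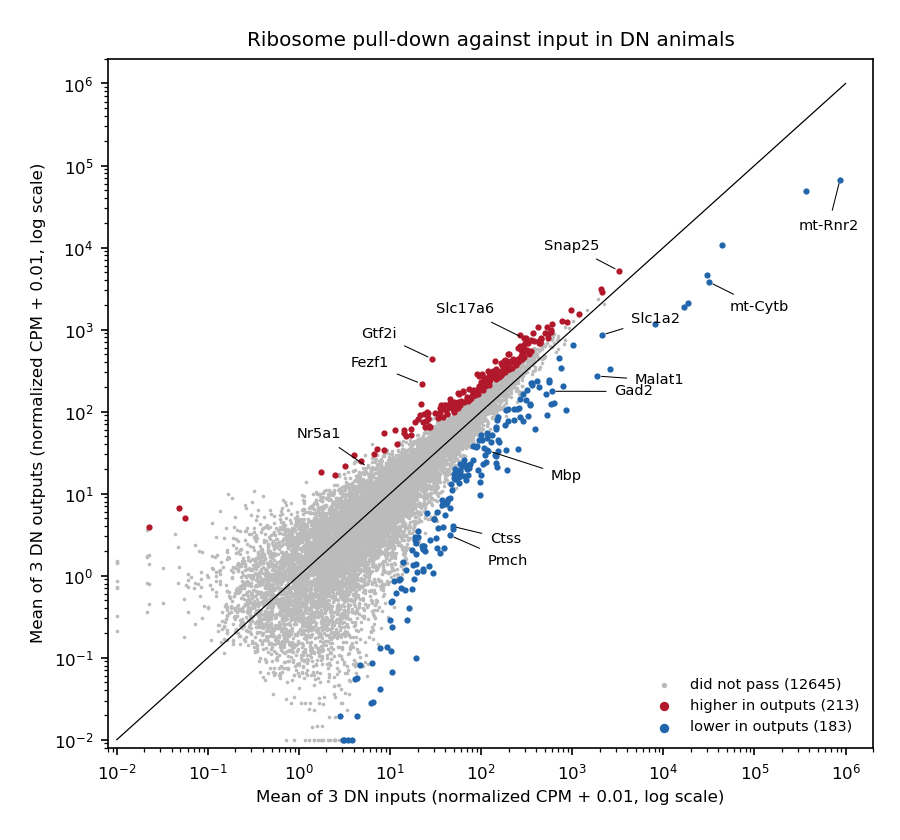
Mean normalized CPM of the 3 DN outputs (y axis) against the 3 DN inputs (x axis), both on log scales with 0.01 added, for the 13041 genes tested, each point a gene. Red points are the 213 genes higher in outputs and blue points the 183 lower, the line marks equal levels, and Gtf2i and Fezf1 stand far above the line while genes of the mitochondrial chromosome lie far below it at the right.

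Among genes that mark VMN neurons, 12 of 35 tested were higher in the outputs, against 1.63% of all tested genes. Fezf1, a zinc finger transcription factor of this nucleus (ENSMUSG00000029697, GRCm38 chromosome 6, 23245044 to 23248362), measured 12.4, 32.0 and 22.1 CPM in the inputs and 249, 214 and 192 CPM in the outputs. Every output lay above every input, at a log2 fold change of 3.39 ± 0.31 (adjusted p = 0.000105). Slc17a6, the vesicular glutamate transporter VGLUT2 (ENSMUSG00000030500, chromosome 7, 51622006 to 51671119), measured 328, 313 and 235 CPM in inputs and 927, 757 and 670 in outputs, again without overlap (1.43 ± 0.13, adjusted p = 0.000131). Pool 3 was the lowest of both groups for this gene, and its ratio was close to those of the other pools. Gda, a guanine deaminase found in VMN neurons, went from 113, 77.2 and 79.3 to 376, 233 and 248 CPM (1.66 ± 0.17). Both Fezf1 and Slc17a6 passed without each pool and in every alternative, and so did Gda.

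Nr5a1 itself, the gene of SF1 (ENSMUSG00000026751, chromosome 2, 38692656 to 38714542), did not pass. It measured 6.11, 6.49 and 4.47 CPM in inputs and 10.2, 29.1 and 23.7 CPM in outputs. All 3 outputs lay above all 3 inputs, but pool 1 had a smaller ratio than pools 2 and 3. The log2 fold change was 1.78 ± 0.61 (95% interval 0.44 to 3.11, adjusted p = 0.168), in a range over the alternatives from 0.0127 with DESeq2 to 0.578 without pool 3. Of the 4 genes set for this comparison, Fezf1, Slc17a6 and Gtf2i thus passed and Nr5a1 did not. Gtf2i is not in the list of VMN neuron markers used here.

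Of 38 VMN neuron markers in the files 35 could be tested. Beside the 12 higher genes 1 was lower, against 1.4% of all tested genes, and 22 did not pass. The list median was 1.37 against 0.00138 over all genes. Of the 35 values 8 were negative, down to -2.51, and in 3 genes every output lay below every input. The list was chosen with earlier results of these data known. The summed level of the list went from 1553 to 1825 CPM over the inputs to 2986 to 3774 CPM over the outputs. Among transcription factors Nr2f2, a nuclear receptor also called COUP-TFII, rose from 23.9, 14 and 26.6 to 94.9, 91.0 and 87.3 CPM (2.13 ± 0.30, adjusted p = 0.00232). Lmo3, a LIM domain cofactor, rose from 123, 123 and 112 to 396, 278 and 265 CPM (1.37 ± 0.18). These outputs were far above the inputs of the same pools and varied less than that gap. Among signalling genes Nptx2, a secreted pentraxin that gathers glutamate receptors at synapses, rose from 1.64, 8.02 and 2.23 to 25.1, 35.3 and 29.2 CPM (3.26 ± 0.59). Calb1, the calcium buffer calbindin, went from 101, 99.9 and 107 to 340, 267 and 248 CPM (1.46 ± 0.18). Gpr149, an orphan receptor, went from 13.2, 7.87 and 4.43 to 51.7, 59.4 and 54.3 CPM (2.83 ± 0.43). Calls of Nptx2 and Gpr149 ended without pool 3 (adjusted p = 0.167 and 0.0813, the highest over the alternatives, with lowest values of 1.58e-08 and 1.75e-10), while Nr2f2, Lmo3 and Calb1 passed in every alternative.

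The remaining higher markers were named after their values were seen. Adcyap1, the precursor of the neuropeptide PACAP, stood at 1.6 ± 0.27, Pdyn, the precursor of dynorphins, at 1.61 ± 0.36, Cbln1, a synapse organizer, at 1.40 ± 0.25, and Fam19a1, a secreted protein, at 1.23 ± 0.30. Calls ended without pool 3 for Adcyap1 (adjusted p = 0.0997), without pool 1 or 3 for Pdyn (0.124 and 0.22) and without pool 2 or 3 for Cbln1 (0.0885 and 0.127), each range reaching down to 2.71e-07, 0.000224 and 1.59e-05. Fam19a1, at an adjusted p of 0.0499, lost its call without each pool (0.116 to 0.26), without the pairing by pool (0.0855), with limma-voom (0.0538), with DESeq2 size factors (0.0627), with upper quartile scaling (0.0614) and at a mean of at least 5 CPM (0.056), with 0.00163 as its lowest value. The 1 lower marker, also named after its value was seen, was Dlk1, a Notch ligand homologue, at 367, 344 and 363 CPM in inputs and 202, 248 and 228 in outputs (-0.67 ± 0.16, adjusted p = 0.0426, and 0.0768 to 0.25 without each of the pools, from 0.00427 to 0.25 over all alternatives). Sox14, a transcription factor, was near the noise in inputs at 0.269, 0.115 and 0.189 CPM and measured 6.82, 4.17 and 4.34 CPM in outputs, with 4.76 ± 1.28 and adjusted p = 0.0760. In bulk RNA, fewer cells of a type and less RNA per cell cannot be told apart, here and in every comparison that follows.

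**Figure D2:**
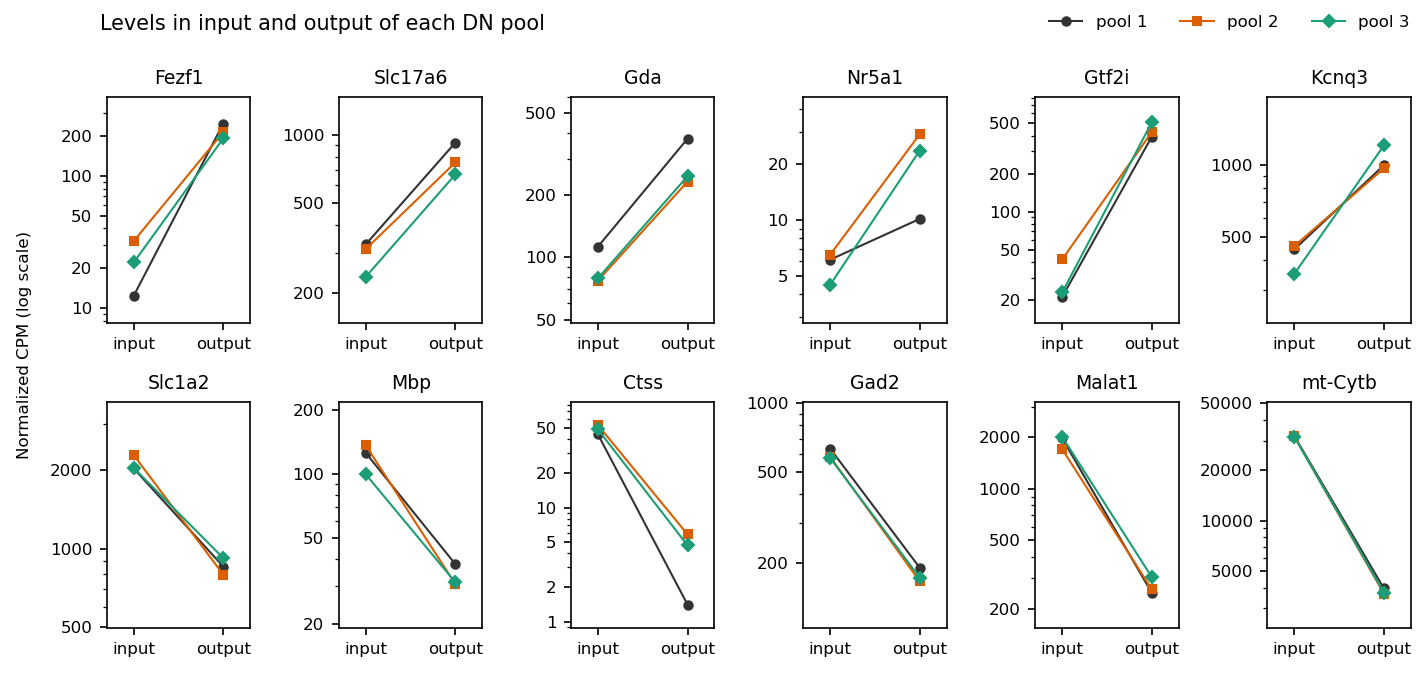
Normalized CPM (log scales that differ between panels) of 12 genes in the input and the output of each DN pool, with a line joining the libraries of a pool. The upper row shows 5 genes that were higher in outputs and Nr5a1, which did not pass and whose pool 1 has the flattest line, and the lower row shows 6 genes that were lower, with the 3 pools close together for mt-Cytb.

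Of the genes that passed and had at least 5 CPM in inputs, Gtf2i had the largest rise. It encodes TFII-I, a transcription factor that also shuttles to the cytoplasm (ENSMUSG00000060261, chromosome 5, 134237834 to 134314760). Its inputs measured 21.1, 41.9 and 22.9 CPM and its outputs 391, 426 and 509 CPM, at a log2 fold change of 4.01 ± 0.24 (adjusted p = 2.21e-06, from 5.45e-57 to 0.000492 over the alternatives). The lowest output was far above the highest input. Among 15 tested genes of the TFII-I family and of general transcription factors this was the 1 that passed. The share higher over all tested genes was 1.63%, and the list median was 0.33.

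The 12 protein-coding genes with the largest rises among those that passed, whose groups did not overlap and that reached 5 CPM in outputs, also held Chrm5, Nol8, Zfp983, Apc2, Camkv, Glra1 and Rinl. Nol8, a nucleolar protein, rose from 27.0, 10.6 and 27.7 to 126, 106 and 143 CPM (2.63 ± 0.29, adjusted p = 0.000448) and passed in every alternative. Chrm5, the M5 muscarinic acetylcholine receptor, went from 1.81, 4.51 and 1.06 to 19.0, 22.8 and 8.18 CPM (2.89 ± 0.69). Glra1, a glycine receptor subunit, went from 4.03, 4.54 and 11.5 to 25.6, 37.5 and 26.9 CPM (2.32 ± 0.55). Their groups did not overlap, but both calls ended without each of the 3 pools (adjusted p from 0.124 to 0.217 for Chrm5, which also failed without the pairing by pool at 0.0648, and from 0.0621 to 0.213 for Glra1, with lowest values over the alternatives of 3.56e-05 and 0.0001). Apc2, a neuronal relative of the APC protein, stood at 2.43 ± 0.37, Camkv, a kinase-like vesicle protein, at 2.33 ± 0.48 and Zfp983, a zinc finger protein, at 2.45 ± 0.59. Without pool 3 they had adjusted p = 0.0854, 0.146 and 0.332, each the highest over the alternatives, whose lowest values were 4.77e-10, 3.46e-06 and 8.07e-05. Camkv and Zfp983 did not pass without pool 1 (0.0599 and 0.0555) or pool 2 (0.06 and 0.0574) either. With DESeq2 size factors and with upper quartile scaling Chrm5 (0.0548 and 0.0567), Glra1 (0.0569 and 0.0588) and Zfp983 (0.0576 and 0.0599) did not pass, nor did they with limma-voom (0.0849, 0.0759 and 0.0592). Rinl, a Ras and Rab interactor, had 3 counts over the inputs and 1511 over the outputs, a ratio of 187 with a counting interval from 63.9 to 908. Its outputs measured 0.576, 2.17 and 17.1 CPM, so pool 3 held most of them, and its adjusted p rose from 0.0420 to 0.513 without that pool (lowest 2.33e-05). The Rinl call also ended with limma-voom (0.0751) and in the fit of all 12 libraries (0.0788).

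Of 27 tested genes for subunits of the glutamate and GABA-A receptors of fast transmission 8 were higher, 0 were lower and 19 did not pass, with 22 positive values and a median of 0.50. The share higher over all tested genes was 1.63%. On the glutamate side Gria3, an AMPA receptor subunit, went from 236, 163 and 141 to 469, 421 and 366 CPM (1.25 ± 0.16, adjusted p = 0.00126). Among GABA-A subunits Gabra5 went from 118, 204 and 103 to 482, 401 and 367 CPM (1.61 ± 0.21) and Gabrb1 from 613, 636 and 531 to 1209, 1217 and 1117 CPM (1.0 ± 0.11). In all 3 genes the lowest output exceeded the highest input. Gabre, a rarer subunit, varied between pools in both fractions, from 36.1, 48.4 and 106 to 145, 149 and 246 CPM (1.61 ± 0.22), with pool 3 highest each time. Gria2, Grin2b and Gabra2, named after their values were seen, had log2 fold changes of 0.66 ± 0.15, 0.68 ± 0.13 and 0.88 ± 0.20. Without pool 3 the calls of Gabra5, Gria2, Grin2b and Gabra2 ended (adjusted p = 0.052, 0.195, 0.0851 and 0.246), as did those of Grin2b and Gria2 without pool 2 (0.134 and 0.123) and of Gria2 and Gabra2 without pool 1 (0.0644 and 0.0574). Gabra2 also failed without the pairing by pool (0.0612), with DESeq2 size factors (0.0612) and with upper quartile scaling (0.0503), and Gria2 with DESeq2 size factors (0.0538) and at a mean of at least 5 CPM (0.052). The lowest values over the alternatives were 6.29e-12, 0.00396, 7.21e-05 and 2.34e-05.

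Of 40 tested voltage-gated channel genes 5 were higher, against 1.63% of all tested genes, and 0 lower, with a median of 0.49. Kcnq3, a subunit of the M-type potassium channel, had the highest CPM of these, from 445, 459 and 352 to 1000, 970 and 1209 CPM (1.34 ± 0.15, adjusted p = 0.000498). Pools 1 and 2 were alike for Kcnq3 and pool 3 had both the lowest input and the highest output. Cacna2d1, an auxiliary calcium channel subunit, stood at 1.31 ± 0.16 and Kcnh7, an ERG-type potassium channel, at 1.01 ± 0.20. Kcnq3 and Cacna2d1 passed in every alternative. Without pool 3 adjusted p was 0.195 for Kcnh7, the highest over the alternatives (lowest 0.000403).

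Presynaptic genes were mixed. Of 32 tested genes of vesicle release 7 were higher and 1 lower, with a median of 0.16, and of 20 pan-neuronal genes 3 were higher and 0 lower, with a median of 0.19. The shares over all tested genes were 1.63% higher and 1.4% lower. Snap25, a SNARE protein of vesicle fusion, went from 3203, 3390 and 3108 to 5365, 5324 and 4957 CPM (0.69 ± 0.07, adjusted p = 0.000323). Syn1, a synapsin of the vesicle surface, went from 542, 521 and 518 to 1253, 984 and 1022 CPM (1.03 ± 0.12). Both genes had tight replicates, with outputs far from inputs. Doc2b, a calcium sensor of release, stood at 1.66 ± 0.25, Sv2b, a vesicle glycoprotein, at 1.17 ± 0.18 and Napb, a SNAP protein that recycles SNAREs, at 1.07 ± 0.15. The member that fell was Pclo, the active zone protein piccolo, named after its value was seen, from 699, 719 and 719 to 459, 417 and 478 CPM (-0.66 ± 0.13, adjusted p = 0.0173). The pan-neuronal neurofilament gene Nefl rose by 1.14 ± 0.16. Without pool 3 the calls of Doc2b, Pclo and Nefl ended (adjusted p = 0.08, 0.157 and 0.0781, and Pclo had 0.104 without pool 2, with lowest values over the alternatives of 6.98e-08, 0.000492 and 2.42e-07), while those of Snap25, Syn1, Sv2b and Napb held in every alternative.

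Of 39 tested synaptic adhesion genes 4 were higher, against 1.63% of all tested genes, and 0 lower, with a median of 0.40. Cdh13, a cadherin without a cytoplasmic tail, went from 53.7, 47.6 and 32.1 to 125, 113 and 109 CPM (1.41 ± 0.24). Slitrk1 stood at 1.53 ± 0.33, Adgrl3, a latrophilin, at 0.74 ± 0.17 and Tenm2, a teneurin, at 0.99 ± 0.18. All 4 calls ended without pool 3 (adjusted p = 0.127, 0.225, 0.195 and 0.126) and those of Slitrk1, Adgrl3 and Tenm2 also without pool 2 (0.14, 0.208 and 0.06) and that of Adgrl3 without the pairing by pool (0.131), with DESeq2 size factors (0.0551) and with upper quartile scaling (0.0604), with lowest values over the alternatives of 4.11e-06, 2.92e-05, 0.00116 and 0.000162. Of 25 metabotropic transmitter receptor genes 2 were higher, Cnr1, the CB1 cannabinoid receptor (1.39 ± 0.27), and Grm5, a glutamate receptor (1.15 ± 0.25). The Cnr1 outputs measured 105, 168 and 105 CPM above inputs of 54.7, 39.6 and 46.7. Neither passed without pool 2 (0.103 and 0.151) or pool 3 (0.123 and 0.245), and their lowest values were 4.55e-05 and 0.000887.

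Among 27 tested receptors for hormones and appetite signals 2 were higher and 1 was lower, with a median of 0.07. The shares over all tested genes were 1.63% and 1.4%. Prlr, the prolactin receptor, went from 87.7, 130 and 105 to 299, 240 and 232 CPM (1.27 ± 0.21, adjusted p = 0.00630). Its groups did not overlap, and the call ended without pool 3 (adjusted p = 0.0841, with a lowest value of 7.27e-07). Several receptors known for their part in the VMN did not pass. Lepr, the leptin receptor, measured 2.42, 7.18 and 2.54 CPM in inputs and 0.151, 5.37 and 9.58 in outputs. Esr1, an oestrogen receptor, measured 15.2, 3.40 and 4.35 CPM in inputs and 10.5, 3.41 and 3.31 in outputs. The groups of both genes overlapped. Pgr, the progesterone receptor, did not overlap, with inputs of 36.1, 29.5 and 45.4 and outputs of 64.8, 67.5 and 78.7 CPM, but had adjusted p = 0.0993 at 0.94 ± 0.27. Lepr, Esr1 and Pgr were named after their values were seen. Ntrk2, the receptor of BDNF, which astrocytes also express in a truncated form, fell from 750, 805 and 713 to 319, 377 and 323 CPM (-1.16 ± 0.13) and passed in every alternative.

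**Figure D3:**
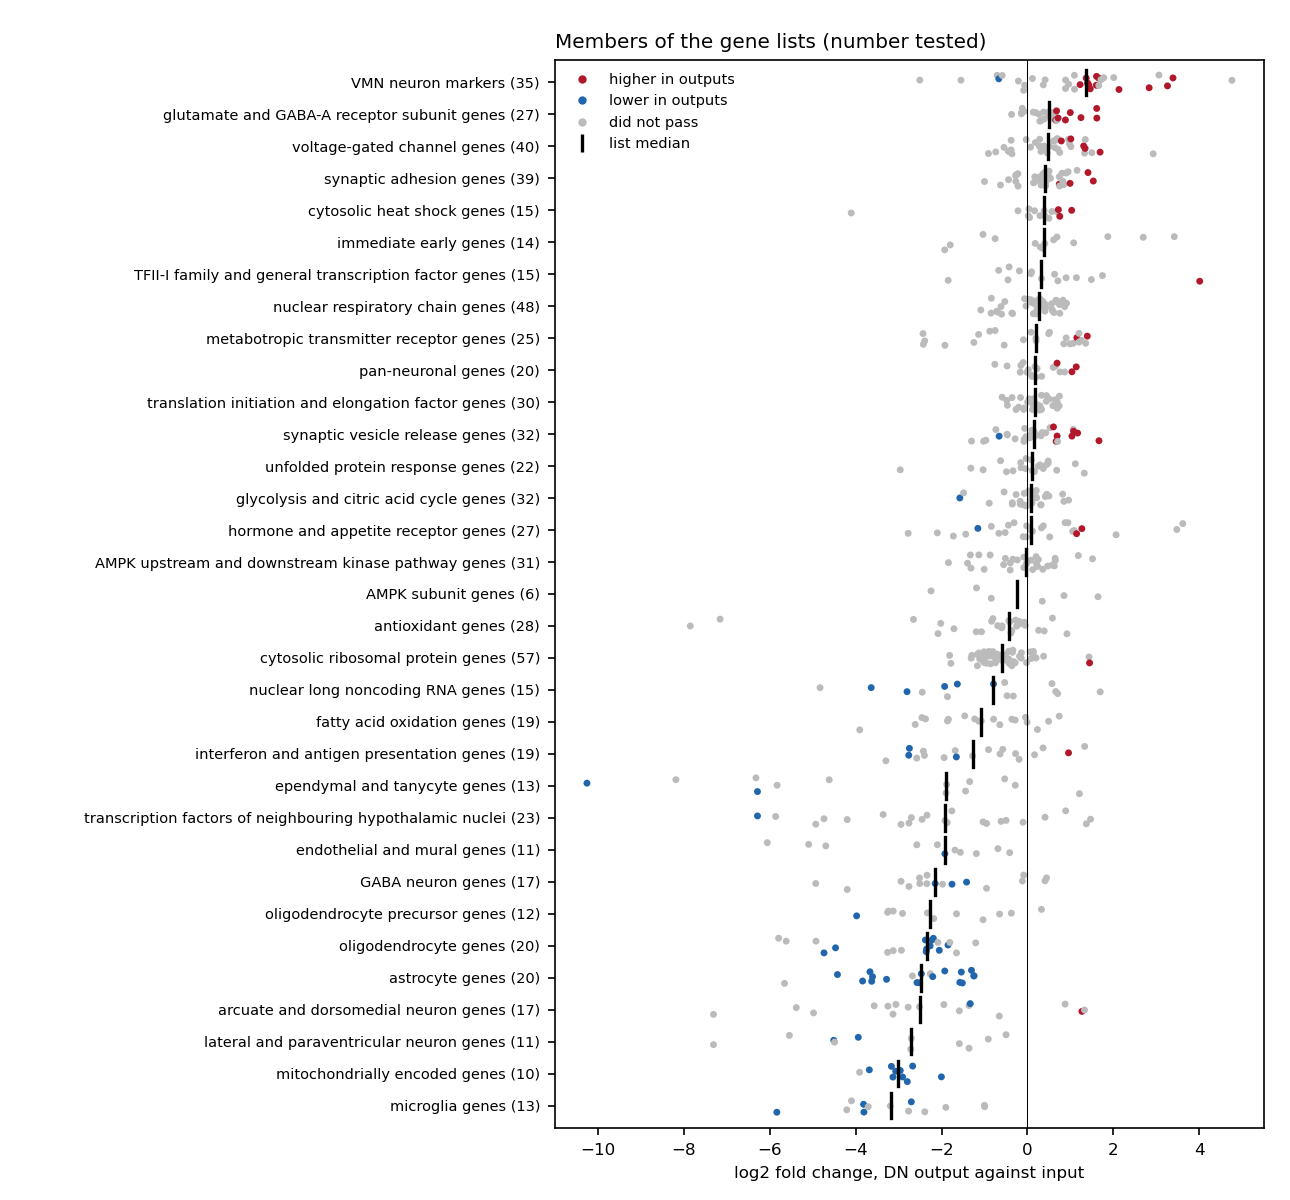
Log2 fold change of DN output against input (x axis) for the tested members of 33 gene lists, 1 point per gene and 1 row per list with its number of tested genes, sorted by list median (black bar). Red and blue points passed as higher or lower and grey points did not. The medians of the VMN neuron, channel and glutamate and GABA-A receptor lists lie to the right of 0. Those of the glial, mitochondrially encoded and other neuron lists lie to the left. The hormone and metabotropic receptor lists spread over both sides, with medians near 0.

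A few marker genes of other hypothalamic neurons were lower in the outputs, and most did not pass. Gad2, an enzyme that makes GABA, measured 633, 583 and 576 CPM in inputs and 191, 167 and 173 in outputs (-1.76 ± 0.14, adjusted p = 4.1e-05, passing in every alternative). Its isoform gene Gad1 fell from 83.4, 79.8 and 52.8 to 10.7, 16.2 and 23.5 CPM (-2.15 ± 0.39). Of 17 GABA neuron genes 3 were lower, against 1.4% of all tested genes, none was higher and 14 did not pass, with a list median of -2.15. Pmch, the precursor of melanin-concentrating hormone of the lateral hypothalamus, fell from 55.9, 43.4 and 37.4 to 1.77, 3.39 and 4.06 CPM (-3.94 ± 0.51) in every alternative. Avp, the vasopressin precursor, went from 9.5, 11.9 and 9.08 to 0.398, 0.710 and 0.299 CPM (-4.51 ± 0.96), and did not pass without pool 2 or 3 (0.09 and 0.202, lowest 4.65e-08). They were the 2 lower genes of 11 lateral and paraventricular genes tested, whose median was -2.72 and whose summed level went from 147 to 213 CPM in inputs to 39.8 to 48.4 in outputs. Hcrt, the orexin precursor, named after its values were seen, measured 12.5, 5.27 and 5.03 CPM in inputs and 1.52, 2.13 and 0.364 in outputs without passing (-2.72 ± 1.04, adjusted p = 0.226).

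Sst, the somatostatin precursor, was the 1 lower gene among 17 arcuate and dorsomedial genes tested, at 115, 111 and 118 CPM in inputs and 29.5, 52.0 and 61.4 in outputs (-1.33 ± 0.26; without pool 3 adjusted p = 0.106, from 4.03e-05 over the alternatives). Prlr, given above, was the 1 higher gene of that list, and the median was -2.51. The shares over all tested genes were 1.4% lower and 1.63% higher. Despite that median, the summed level of the list was alike, at 310 to 382 CPM in inputs and 331.5 to 364.7 in outputs. Of 30 transcription factors of neighbouring nuclei in the files 23 could be tested; 1 was lower, none was higher and the median was -1.92. That 1 was Hdc, histidine decarboxylase of histamine neurons, which is an enzyme and stands in the list as a marker, at 9.33, 11.8 and 8.48 CPM in inputs and 0.0960, 0.0139 and 0.727 in outputs (-6.29 ± 1.44, adjusted p = 0.0388). Its call ended without pool 2 or 3 (0.126 and 0.0851) and with limma-voom (0.0554), in a range from 1.52e-08 to 0.126. Lhx8, Hmx2, Hmx3, Rax and Barhl1, factors of other hypothalamic and forebrain regions, had no count in any DN output. They failed the low-count filter over inputs and outputs together and were not tested, so their zeros do not show a fall.

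Most astrocyte genes fell. All 20 were tested and 17 were lower, against 1.4% of all tested genes, while none was higher. In all 20 every output lay below every input, against 11.1% of all tested genes. The list median was -2.49, and the summed level went from 4649 to 4919 CPM over the inputs to 1576 to 1635 CPM over the outputs. Slc1a2, the glutamate transporter GLT-1, remained the most abundant of them in outputs, at 854, 796 and 921 CPM against 2029, 2283 and 2038 CPM in inputs (-1.30 ± 0.11, adjusted p = 4.47e-05). Slc1a3, the transporter GLAST, fell from 159, 195 and 205 to 42.7, 23.6 and 36.8 CPM (-2.47 ± 0.26), and Glul, glutamine synthetase, from 307, 295 and 263 to 74.4, 89.4 and 65.2 CPM (-1.93 ± 0.18). For Slc1a3 pool 2 had the lowest output, and for Glul pool 2 had the highest. Slc4a4, a bicarbonate transporter, stood at -1.52 ± 0.16, and these 4 genes passed in every alternative. Apoe, the lipid carrier, named after its value was seen, fell further still, from 39.3, 42.6 and 33.9 to 0.686, 3.78 and 2.04 CPM (-4.43 ± 0.61). The 3 members that did not pass were Aldh1l1, Sox9 and Fgfr3, at -5.66 ± 2.04, -2.68 ± 0.72 and -2.26 ± 0.69. Aldh1l1 was at or under 1.89 CPM in every library.

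Among genes of oligodendrocytes 10 of 20 were lower, against 1.4% of all tested genes, and none was higher, with a median of -2.35. In 18 every output lay below every input, against 11.1% of all tested genes. Mbp, myelin basic protein, went from 125, 136 and 99.4 to 37.8, 30.5 and 31.2 CPM (-1.85 ± 0.24), Mobp from 113, 190 and 118 to 20.0, 49.3 and 18.3 CPM (-2.38 ± 0.25) and Ermn, a cytoskeletal protein of these cells, from 92.3, 105 and 141 to 10.6, 26.4 and 36.2 CPM (-2.35 ± 0.30). Fa2h, which hydroxylates fatty acids of myelin lipids, fell to near the noise, from 15.8, 42.9 and 29.8 to 0.617, 1.25 and 1.36 CPM (-4.74 ± 0.59). The highest input was that of pool 2 for each of these genes but Ermn, and all 4 passed in every alternative. Of 12 genes of oligodendrocyte precursors Bcas1 passed as lower (-3.98 ± 0.53), with adjusted p = 0.0869 without pool 3 (from 1.67e-18 over the alternatives), and the list median was -2.26.

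Some markers of microglia, vessels and the ventricular lining were lower in outputs, and most did not pass. Of 13 tested microglia genes 4 were lower, against 1.4% of all tested genes, and none was higher, with a median of -3.19. Their summed level was 160 to 208 CPM in inputs and 31.6 to 42.8 in outputs. Aif1 and Trem2 had no count in any DN output. Both failed the low-count filter over inputs and outputs together, so their zeros do not show a fall. Ctss, the protease cathepsin S, fell from 43.9, 53.0 and 48.5 to 1.41, 5.83 and 4.67 CPM (-3.82 ± 0.50, adjusted p = 0.00145) and passed in every alternative. C1qb, a complement component, stood at -5.84 ± 1.37, Itgam, an integrin subunit, at -2.71 ± 0.59 and Fcer1g, an Fc receptor chain, at -3.81 ± 0.87. Their calls ended without pool 2 (adjusted p = 0.131, 0.16 and 0.173) and without pool 3 (0.0794, 0.25 and 0.237), and that of C1qb also without pool 1 (0.0633) and without the pairing by pool (0.0779) and with limma-voom (0.062), and that of Fcer1g in the fit of all 12 libraries (0.0568); the lowest values over the alternatives were 4.65e-08, 3.69e-06 and 1.21e-06. Of 11 endothelial and mural genes Rgs5, a pericyte marker, was lower, from 67.4, 54.7 and 52.0 to 14.8, 7.50 and 32.2 CPM (-1.92 ± 0.44; adjusted p = 0.16 without pool 2, 0.0542 without pool 3 and 0.0734 without the pairing by pool, lowest 7.34e-05). Of 13 ependymal and tanycyte genes Hdc, which stands in this list too, and Ccdc153 were lower. Ccdc153, a gene of ciliated cells, had inputs of 3.83, 2.79 and 2.54 CPM and no count in the outputs, at least 228-fold lower against a floor of 3 counts over the group. That call ended without pool 2 or 3 (adjusted p = 0.0919 and 0.196, from 3.87e-06 over the alternatives).

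Genes of antigen presentation and of the interferon response were mostly lower or did not pass. Of 19 tested 3 were lower and 1 higher, against 1.4% and 1.63% of all tested genes, with a median of -1.28. B2m, the constant chain of class I histocompatibility molecules, fell from 399, 591 and 562 to 135, 184 and 170 CPM (-1.66 ± 0.15, adjusted p = 8.79e-05) in every alternative. The heavy chains H2-D1 and H2-K1 stood at -2.77 ± 0.55 and -2.75 ± 0.41, and without pool 3 had adjusted p = 0.134 and 0.119 (lowest 2.44e-07 and 3.07e-12). Oasl2, an interferon-induced gene, was the member that rose, from 41.7, 91.4 and 183 to 103, 214 and 229 CPM (0.96 ± 0.23, adjusted p = 0.0484). It is a case where groups overlapped, because its level differed between pools in inputs and outputs alike and was lowest in pool 1. The Oasl2 call ended without each of the 3 pools (0.0551 to 0.22), without the pairing by pool (0.423), with limma-voom (0.0926), with DESeq2 size factors (0.0684) and with upper quartile scaling (0.0638), with a lowest value of 0.00114.

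Of 15 tested genes in a list of long noncoding RNAs 5 were lower, against 1.4% of all tested genes, with none higher and a median of -0.79. Malat1, a very abundant nuclear RNA, fell from 1966, 1700 and 2005 to 247, 259 and 306 CPM (-2.81 ± 0.12, adjusted p = 5.61e-08), and Meg3, an imprinted RNA, from 333, 347 and 303 to 61.5, 103 and 100 CPM (-1.93 ± 0.20). Both passed in every alternative. Snhg11 and Gas5, hosts of small nucleolar RNAs, stood at -0.79 ± 0.15 and -1.63 ± 0.35, and Neat1, the scaffold of paraspeckles, at -3.64 ± 0.86. Without pool 3 adjusted p was 0.126, 0.243 and 0.119. Snhg11 did not pass without pool 2 either (0.1), nor Neat1 without pool 1 or 2 (0.165 and 0.122), without the pairing by pool (0.0871), with limma-voom (0.0534) or with upper quartile scaling (0.0527); their lowest values were 0.000394, 4.61e-05 and 4.11e-06. The long intergenic RNAs together took 0.901% ± 0.0612 of the nuclear counts in inputs and 0.350% ± 0.0280 in outputs. A few noncoding genes rose. Tug1 went from 154, 110 and 144 to 304, 305 and 275 CPM (1.13 ± 0.18), and Gm26805, annotated as antisense, from 2.52, 1.22 and 1.40 to 22.9, 17.8 and 14.9 CPM (3.48 ± 0.67). Their calls ended without pool 3 (0.0641 and 0.157, lowest 3.27e-06 and 4.7e-08), and that of Gm26805 without pool 2 (0.0685). C130093G08Rik and Gm26771 also rose, at 2.87 ± 0.69 and 6.73 ± 1.54. C130093G08Rik failed without pool 2 or 3 (0.199 and 0.195, lowest 4.32e-05), with limma-voom (0.0728), with DESeq2 size factors (0.0565) and with upper quartile scaling (0.0613). Gm26771 failed without each pool (0.0608 to 0.245, lowest 4.33e-05) and with limma-voom (0.0761). The strand setting of the counting is not given in the sources used here, so reads of antisense genes cannot be told apart from those of their partners.

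Most tested transcripts made inside mitochondria, which cytosolic ribosomes do not translate, fell with small standard errors. Of 15 mitochondrially encoded genes looked for 10 could be tested and 9 were lower, against 1.4% of all tested genes. The list median was -3.02. The large ribosomal RNA mt-Rnr2 stood at -3.68 ± 0.03 (adjusted p = 1.46e-14), the small one mt-Rnr1 at -2.91 ± 0.05 and mt-Cytb, of complex III, at -3.07 ± 0.05, from 31983, 31800 and 31674 to 3953, 3678 and 3735 CPM. The 3 pools were nearly the same. The subunits mt-Nd1 and mt-Nd4 of complex I fell by 3.13 and 3.17 on the log2 scale, whereas mt-Co1 of complex IV, named after its value was seen, fell by 2.0 ± 0.05. The 5 genes that could not be tested, mt-Co2, mt-Co3, mt-Atp6, mt-Atp8 and mt-Nd4l, had no count in any DN output. They failed the low-count filter over inputs and outputs together, so these zeros do not show a fall. These calls held in every alternative that kept the genes.

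Nuclear genes of energy metabolism were tested next. Of 48 nuclear genes of the respiratory chain none passed in either direction, 36 were positive and the median was 0.26. Sdha, of complex II, measured 139, 191 and 159 CPM in inputs and 230, 255 and 230 in outputs (0.56 ± 0.17, adjusted p = 0.117), and Uqcrc2, of complex III, stood at 0.72 ± 0.27 (0.221). Neither gene's groups overlapped. Of 32 genes of glycolysis and the citric acid cycle 1 was lower, against 1.4% of all tested genes, and the median was 0.08. It was Aldoc, an aldolase isoform of astrocytes, from 120, 104 and 94.5 to 38.4, 35.7 and 32.3 CPM (-1.58 ± 0.24, with adjusted p = 0.0651 without pool 3, from 1.23e-08). Of 19 tested fatty acid oxidation genes none passed, 3 were positive and the median was -1.08. Oxct1, an enzyme of ketone use, stood at 0.74 ± 0.19 (adjusted p = 0.0673) and Decr1, a reductase of unsaturated fatty acids, at -2.37 ± 0.94 (0.244). Oxct1 passed without the pairing by pool (0.0422), with DESeq2 (0.0142), without the filter on low counts (0.0255) and in the fit of all 12 libraries (0.0444). Decr1 passed with DESeq2 (0.0164). The 28 antioxidant genes had a median of -0.43 and none passed. Gpx3, an extracellular glutathione peroxidase, stood at 0.92 ± 0.27 (0.100). Nqo1, a quinone reductase, had 171 counts over the inputs and 2 over the outputs, a ratio of 230 with a counting interval from 62.7 to 1920 (adjusted p = 0.0858). Nqo1 passed without the pairing by pool (0.0465), with DESeq2 (0.000793) and with limma-voom (0.0493). Gpx3 passed with DESeq2 (0.0198), without the filter on low counts (0.024) and in the fit of all 12 libraries (0.0358).

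Genes of AMPK and its pathway did not pass. Prkaa2, the catalytic subunit alpha 2 (ENSMUSG00000028518, chromosome 4, 105029874 to 105109890), measured 34.5, 53.4 and 55.3 CPM in inputs and 106, 77.2 and 73.6 in outputs, without overlap, at 0.85 ± 0.29 (adjusted p = 0.170). Prkaa1, alpha 1 (ENSMUSG00000050697, chromosome 15, 5143861 to 5181899), measured 45.1, 81.0 and 24.6 CPM in inputs and 27.3, 19.7 and 28.5 in outputs, with overlap, at -0.84 ± 0.44 (0.418). Counts per gene do not separate transcripts of the virus from those of the mouse gene, and which subunit the virus codes for is not given in the labels. Prkag2, a regulatory gamma subunit, went from 6.51, 5.16 and 1.70 to 13.3, 10.6 and 13.1 CPM (1.64 ± 0.76, adjusted p = 0.345). Of the 6 subunit genes tested and of 31 upstream and downstream genes none passed, with medians of -0.25 and -0.02. The smallest p in the pathway belonged to Crtc1, a CREB coactivator held in check by AMPK-family kinases (1.18 ± 0.33, adjusted p = 0.0856, from 0.00732 to 0.267 over the alternatives), and to Foxo1, a transcription factor (-1.32 ± 0.42, 0.133, from 0.00839 to 0.516). DESeq2 called both.

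The translation machinery showed little change that passed. Of 57 tested cytosolic ribosomal protein genes 1 was higher, Rpl15, from 38.2, 53.8 and 28.7 to 129, 84.3 and 109 CPM (1.45 ± 0.29, adjusted p = 0.0221; 0.226 without pool 3, from 7.44e-05). The 1 call was 1.75% of the list, against 1.63% of all tested genes. The list median was -0.60, with 48 of the 57 genes negative. Rpl10, the mouse gene with the name of the tag, measured 3.86, 0.764 and 3.59 CPM in inputs and 1.40, 0.988 and 1.35 in outputs. Rpl10a, a separate gene of similar name, measured 1.61, 3.55 and 6.17 CPM in inputs and 9.33, 7.46 and 10.3 in outputs, without overlap. Neither passed (adjusted p = 0.833 and 0.483). Counts per gene do not separate transcripts of the tag virus from those of a mouse gene. Many ribosomal protein genes have near-identical pseudogenes, so their counts are uncertain. Of 30 translation factors none passed (median 0.18), the smallest p being that of Eif4g3 (0.74 ± 0.19, adjusted p = 0.0683). None of 22 genes of the unfolded protein response passed (median 0.10). Of 15 cytosolic heat shock genes 3 were higher: Hsp90aa1 at 0.72 ± 0.15, Hsph1 at 0.75 ± 0.15 and Dnaja2, a co-chaperone, at 1.03 ± 0.22. The inputs of Hsph1 measured 222, 233 and 252 CPM and its outputs 368, 457 and 369. All 3 calls ended without pool 2 (0.122, 0.15 and 0.14) and without pool 3 (0.186, 0.129 and 0.113), with lowest values of 0.00327, 0.000931 and 0.00115. No immediate early gene of 14 tested passed (median 0.38), with Npas4 at 0.302, 0.153 and 0.114 CPM in inputs and 0.658, 1.92 and 1.16 in outputs.

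The 12 protein-coding genes with the largest falls among those that passed, did not overlap and had at least 5 CPM in inputs were close to 0 in outputs. Prss23, a serine protease, went from 0.839, 15.7 and 2.84 to 0, 0.0557 and 0 CPM, and Ly6a, a surface antigen of endothelial and immune cells, from 18.1, 4.12 and 9.54 to 0, 0 and 0.169 CPM. H2-Aa, a class II histocompatibility chain, went from 3.93, 22.3 and 4.47 to 0.110, 0.209 and 0.0130 CPM. The inputs of Prss23 and H2-Aa were highest in pool 2. The fitted values were -8.60 ± 1.56, -8.55 ± 1.62 and -6.53 ± 1.17. Dapp1, Eva1a, Lcat, Sp100, Parp12, Alox8, Smyd1, Nrn1 and Hdc complete the 12, between -8.02 ± 1.78 for Eva1a and -5.95 ± 0.88 for Nrn1. Lcat, an enzyme that esterifies cholesterol, was even across inputs at 7.35, 7.83 and 7.76 CPM and measured 0.0137, 0.348 and 0 CPM in outputs. Nrn1, neuritin, a gene of neurons, went from 6.08, 27.3 and 12.8 to 0.0549, 0.473 and 0.299 CPM. Of these 12 calls that of Ly6a held in every alternative, with adjusted p up to 0.0474. The others ended without at least 1 pool: without pool 2 for Sp100, without pool 3 for Lcat, Smyd1 and Nrn1, without pool 1 or 3 for Eva1a, and without pool 2 or 3 for the remaining genes. Lcat also failed without the pairing by pool (0.0565), Sp100 with DESeq2 size factors (0.0502) and upper quartile scaling (0.057), and Hdc with limma-voom (0.0554). These had highest adjusted p over the alternatives of 0.184 (Prss23), 0.0894 (Dapp1), 0.237 (Eva1a), 0.219 (Lcat), 0.272 (Sp100), 0.161 (Parp12), 0.167 (H2-Aa), 0.126 (Hdc), 0.128 (Alox8), 0.178 (Smyd1) and 0.0542 (Nrn1); their lowest values lay between 6.37e-17 (Nrn1) and 9.12e-08 (Lcat).

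Compared per kilobase of exon, the most abundant nuclear messengers of the outputs included synaptic and calcium-binding genes. Calm2, a calmodulin gene, led 12101 protein-coding genes in both fractions, at 1982 CPM per kilobase in outputs and 1448 in inputs. Vsnl1, a neuronal calcium sensor, was next in both, with 1575 and 1056 CPM per kilobase. Snap25, Ywhaz, Slc25a4, Rab2a, Syn1, Rtn1 and Ywhab were also among the 10 highest in outputs, from 768 down to 292 CPM per kilobase. B2m held rank 3 by input level and rank 23 by output level. Fezf1 moved from rank 1696 to 78 on this scale, Slc17a6 from 146 to 37, Gtf2i from 4768 to 259 and Nr5a1 from 7041 to 3218. Of the 10 leading genes 8 were higher in outputs, against 1.63% of all tested genes. Since the 10 were picked by their output level, which favours rises, this count is not a result about them. The 8 had log2 fold changes from 0.45 ± 0.08 for Calm2 to 1.03 ± 0.12 for Syn1. Rtn1 and Ywhaz did not pass (0.41 ± 0.11 and 0.29 ± 0.09, adjusted p = 0.0820 and 0.125). Without pool 3 the calls of Calm2, Vsnl1, Slc25a4, Rab2a and Ywhab ended (0.157, 0.0781, 0.0986, 0.0805 and 0.0767), and without pool 2 those of Calm2, Slc25a4 and Rab2a (0.0745, 0.16 and 0.0791); the lowest values were 2.66e-06, 1.06e-07, 7.2e-05, 6.47e-05 and 3.27e-06. The Calm2 call also ended with DESeq2 (0.0741) and in the fit of all 12 libraries (0.105).

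Length was examined as a property that the calls did not use. The median exon length was 7094 bases for protein-coding genes that were higher, 4255 for those lower and 4843 for all tested, and the median span in the genome was 84.8, 25.8 and 28.5 kb. With genes split into 4 equal classes by exon length, among the 3027 in the longest class 3.2% were higher and 1.29% lower, and among the 3028 in the shortest 0.661% were higher and 1.78% lower. These are descriptions with no test, and since longer genes also collect more counts, their part in the calls was not tested.

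Sequences were examined for the core letters of the SF1 response element, AAGGTCA, on both strands of RefSeq promoter windows (GRCm38.p6, 250 bases before to 50 after each start). The motif occurred for 5 of 165 matched genes that were higher (3.03%), 6 of 133 that were lower (4.51%) and 362 of 9879 tested genes with a window (3.66%), so the share among the higher genes was no larger than the background. A match of these letters is a description and not a binding site. The windows of Fezf1, Slc17a6 and Gtf2i held none. The 5 matches among higher genes are shown with 10 bases on each side, 5′ to 3′ on the strand of the gene, with the motif in capitals.
Celf2, chr2:7081416-7081442, minus strand: ggctacaaaaAAGGTCAaatttgatca
Frrs1l, chr4:56990521-56990547, minus strand: agggaccagaAAGGTCAaatctggagg
Hpcal4, chr4:123183310-123183336, plus strand: cgactccgggAAGGTCAgcgcgggcgg
Myt1l, chr12:29528301-29528327, plus strand: tatttaacagAAGGTCAtatgccgggg
Sema5a, chr15:32244663-32244689, plus strand: ggggcctgggAAGGTCAggggtgggtg
The log2 fold changes of these genes, named after their values were seen, were 0.82 ± 0.16 for Celf2, an RNA-binding protein, 0.93 ± 0.17 for Frrs1l, a partner of AMPA receptors, 0.81 ± 0.17 for Hpcal4, a calcium sensor, 0.93 ± 0.21 for Myt1l, a neuronal transcription factor, and 1.27 ± 0.15 for Sema5a, a guidance molecule. Sema5a passed in every alternative, whereas the others ended without pool 3 (adjusted p = 0.154, 0.178, 0.207 and 0.195), Celf2, Hpcal4 and Myt1l also without pool 2 (0.0903, 0.0801 and 0.0801) and Myt1l without pool 1 and with DESeq2 size factors (0.115 and 0.0538; the 4 had lowest values of 0.000618, 5.93e-05, 0.00192 and 0.0031).

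Whether the enrichment itself differed between DN and CTRL animals was tested as an interaction in a fit of all 12 libraries with a term for each of the 6 pools. None of 15011 genes passed with edgeR (0%), with 589 at an unadjusted p below 0.05 and a smallest adjusted p of 0.896. DESeq2 called 63 genes, limma-voom 0 and edgeR without the filter on low counts 1. In that fit 392 of the 396 genes called in DN had the same sign in CTRL (99%), against 66.8% of all tested genes, and the log2 fold changes of DN and CTRL had r = 0.434 across 13041 genes, a description, since genes are not independent and low counts add noise on both axes. The 4 genes with opposite signs were Rinl, Gm26771, Slc18b1 and Pard3b, at 6.82, 6.75, 2.26 and -6.80 in DN against -4.55, -2.71, -0.19 and 0.45 in CTRL. The last pair was named after its values were seen.

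**Figure D4:**
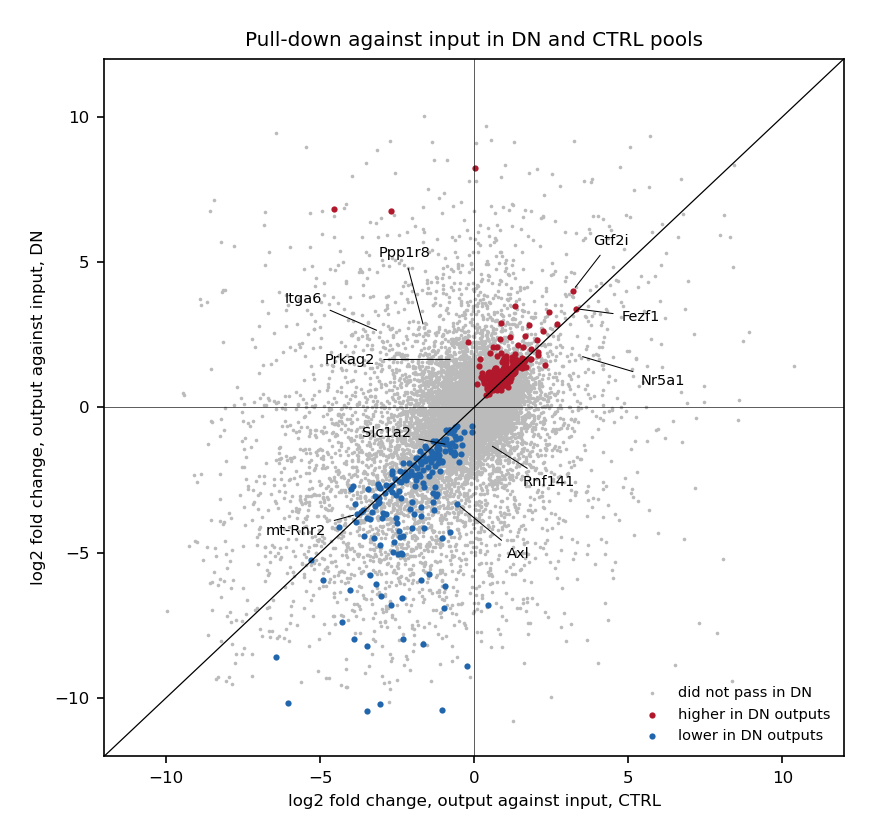
Log2 fold change of output against input in DN (y axis) and CTRL (x axis), both from the 12-library fit, 1 point per gene. The line marks equal values, red and blue points are genes called in the DN comparison, and 392 of 396 of them lie in the lower left or upper right of the plot, while none of the labelled genes passed the test of the difference with edgeR.

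Fezf1, Slc17a6, Gtf2i and Nr5a1 had these differences between DN and CTRL. Fezf1 stood at 3.39 in DN and 3.29 ± 0.28 in CTRL, a difference of 0.11 (95% interval -0.68 to 0.89). Slc17a6 differed by 0.22 (-0.19 to 0.64). Gtf2i was more enriched in DN in the fitted values, with 3.20 ± 0.21 in CTRL and a difference of 0.82 (0.23 to 1.42, unadjusted p = 0.0101, adjusted p = 1). Its CTRL libraries measured 40.1 ± 3.28 (SD, n = 3) CPM in inputs and 368 ± 31.1 in outputs. Nr5a1 was less enriched in DN, with 3.39 ± 0.57 in CTRL and a difference of -1.6 (-3.21 to 0.0, unadjusted p = 0.0505). Its CTRL levels were 2.07 ± 0.846 and 22.7 ± 12.2 CPM. None of these differences passed, and the intervals leave room for sizeable ones.

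The 6 genes with the smallest p for the difference and a mean of at least 5 CPM were Itga6, Rnf141, Axl, Ppp1r8, Mamld1 and Rpf1. Itga6, an integrin subunit of laminin receptors, went from 11.1 ± 2.72 to 1.39 ± 0.516 CPM in CTRL and from 2.07 ± 1.02 to 11.8 ± 4.43 CPM in DN (difference 5.64 ± 1.02, unadjusted p = 6e-05, adjusted p = 0.896). Rnf141, a ring finger protein, went from 49.2 ± 9.46 to 67.7 ± 3.60 CPM in CTRL and from 47.4 ± 14.1 to 20.1 ± 7.74 in DN (difference -1.74 ± 0.36). Axl, a receptor tyrosine kinase of glia and vessels, was at 24.4 ± 15.8 and 15.2 ± 5.32 CPM in CTRL and at 29.3 ± 13.6 and 2.89 ± 1.19 in DN (difference -2.77 ± 0.65). Ppp1r8, a nuclear regulator of protein phosphatase 1, and Rpf1, a ribosome biogenesis factor, differed by 4.36 ± 1.02 and 4.0 ± 0.98, and Mamld1, a transcriptional coactivator, by 1.5 ± 0.36. All 6 failed with edgeR and passed with DESeq2, where adjusted p ranged from 4.64e-07 for Itga6 to 0.0162 for Mamld1, and the highest over the alternatives was 1 for each.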

How the data were processed

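RNA of input and ribosome-bound fractions was amplified with the NuGEN Ovation system, per the labels' protocols. Per the submitters' processing notes, the authors used cutadapt 1.3, STAR 2.4.2a, HTSeq 0.6.1 and the GRCm38 build; the sources used here name neither the annotation release nor the strand setting. The deposited values are raw read counts per gene for 46517 genes in each of 12 libraries, while the last 5 lines of every file, which count reads outside genes (16.5% of all in DN inputs and 24.4% in DN outputs), were left out. Symbols, positions and exon lengths came from GENCODE release 21, which held 46005 of the genes (98.9%). No molecular identifiers are named, so counting intervals and bounds, set at 95% and at 3 counts, cover counting error only.

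The 6 DN libraries were fitted with edgeR 4.0.16 (R 4.3.3) after filterByExpr (minimum count 10) and TMM scaling, with fraction and pool as terms and 2 residual degrees of freedom; the quasi-likelihood test was adjusted by Benjamini-Hochberg. Input and output share a pool of animals, per the series' design text. Deviations from the fraction means correlated at r = 0.0044, 0.0069 and 0.0235 within pools 1, 2 and 3 over 13041 genes, and at -0.0275 to 0.0180 between an input and an output of different pools, so the pairing rests on the design text. The 12-library fit had a term for each pool and gave every CTRL fold change. The code was tested on simulated data. Alternatives were no pool term, DESeq2 1.42.0, limma 3.58.1 with voom, other scalings and filters, the 12-library fit, and each pool left out, which leaves 1 residual degree of freedom.

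The members and the 33 gene lists were chosen with earlier results of these data known. Genes were named by these rules: 8 fixed genes; the 12 protein-coding genes and 4 others with the largest change each way among those that passed, did not overlap and had at least 5 CPM in the higher group; up to 5 members of each list that passed with the smallest p, or 2 where none passed; the 10 highest per kilobase; and 6 for the difference between DN and CTRL. Other genes with values, among them Adcyap1, Aldh1l1, Apoe, Cbln1, Celf2, Dlk1, Esr1, Fam19a1, Fgfr3, Frrs1l, Gabra2, Gria2, Grin2b, Hcrt, Hpcal4, Lepr, mt-Co1, Myt1l, Pard3b, Pclo, Pdyn, Pgr, Sema5a, Slc18b1, Sox14 and Sox9, were chosen after their values were seen. Counts of a gene do not separate splice forms. A few genes that the rules select are not reported here.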

Additional observations from a re-analysis of the deposited data

Results flagged for a closer look

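In 6 of the 193 genes looked at here all 3 DN pools had a ratio of output to input on the opposite side of 1 from all 3 CTRL pools. Over all genes of the 12-library fit 293 of 15011 had this pattern (1.95%), and Itga6, Rnf141, Ppp1r8 and Rpf1 were chosen for a small p of this difference. The log2 fold change in DN minus that in CTRL was 9.46 for Gm26771, 2.30 for Prkag2, 5.64 for Itga6, -1.74 for Rnf141, 4.36 for Ppp1r8 and 4.0 for Rpf1. The difference was tested in edgeR's 12-library fit and none of the 6 passed, with adjusted p = 0.896 for Itga6 and 1 for the others. Gm26771 was close to 0 in DN inputs (0.101, 0 and 0.0378 CPM), so its fitted difference depends on the prior count and is no bound. Prkag2, an AMPK subunit gene, had an unadjusted p of 0.0289.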

How the results depend on the processing

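Against 213 higher and 183 lower genes, DESeq2 called 620 and 909, no filter on low counts gave 431 and 350, and the fit of all 12 libraries 380 and 314. Leaving out a pool gave from 45 to 231 higher and from 62 to 229 lower genes, with 104 of the 396 calls shared when pool 3 was left out. Without the pairing by pool (no replicate block) 240 were higher and 201 lower, 353 of them shared. For the difference between DN and CTRL, DESeq2 called 63 genes, the fit with no filter on low counts called 1, and the other alternatives 0. The share of rises among the calls went from 53.8% to 40.5% with DESeq2, to 45.3% at a mean of at least 5 CPM (198 higher and 239 lower), to 49.0% with DESeq2 size factors (174 and 181) and to 42.1% without pool 3 (45 and 62). No named gene that passed changed sign. Of those that did not pass, Lepr went from -0.67 to 0.75 without pool 1, 0.32 without the pairing and 0.35 with limma-voom, and Insr from -0.10 to 0.07 without pool 3. Of 106 named genes that passed, 43 did so without each pool and in every alternative. Several genes that did not pass in the main fit passed with DESeq2, among them Sox14, Sox9, Fgfr3, Hcrt, Pgr and Eif4g3 (adjusted p = 0.000264, 0.000211, 0.0017, 0.0132, 0.0146 and 0.0159). The causes of these differences were not tested, except that leaving out a pool leaves 4 libraries. Limits are the 3 pools per group, inputs with fewer nuclear counts than outputs, amplified libraries, and a CTRL label at odds with its treatment text.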

Other observations

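Immunoglobulin genes, chosen after their values were seen, varied widely between pools. Ighm, the constant region of IgM heavy chains, measured 277, 60.6 and 6.32 CPM in DN inputs and 139, 22.6 and 1.27 CPM in DN outputs. Igkc, the kappa light chain constant region, measured 164, 57.9 and 3.29 CPM in inputs and 64.0, 4.23 and 0.0260 CPM in outputs. Both were highest in pool 1 and lowest in pool 3 in each fraction, so the groups overlapped although every pool fell. Paired by pool, edgeR's quasi-likelihood test gave log2 fold changes of -1.55 ± 0.28 (adjusted p = 0.0120) and -3.43 ± 0.70 (adjusted p = 0.0234). Without the pairing the adjusted p was 0.746 and 0.653.

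Inhbb, a subunit of inhibins and activins, and Gpx8, a peroxidase of the endoplasmic reticulum, were also named after their values were seen. They had 314 and 260 counts over the DN inputs and 0 over the DN outputs, at least 282-fold and 233-fold lower against a floor of 3 counts over the group. Ighg3, a heavy chain constant region of IgG, had the opposite sign, with 0.470, 0 and 0 CPM in inputs and 28.7, 1.25 and 0 CPM in outputs (6.26 ± 1.49, adjusted p = 0.0532), and again pool 1 was the highest in both fractions.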
